A study of Homo sapiens with 118 samples.

Results

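The heat shock chaperones described here were 10 genes: HSPA1A, HSPA1B, HSPA2, HSPA8, HSP90AA1, HSP90AB1, HSPH1, DNAJB1, HSPB1 and BAG3. They were picked by name, as the rows of the count table whose label, without its trailing probe number, equals one of these symbols. This gave 15 probes of the 22068 with a complete row, and the 10 genes stand among 19470 symbols. After the filter on low counts, 12 of the 15 probes were tested for every chemical. The other 3 were all probes of HSPA8: HSPA8_92549 had 0 counts in all 118 libraries, HSPA8_92546 never passed 8 counts and HSPA8_92547 never passed 15.

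The 118 libraries came from HepaRG cells, an established human liver line that can be differentiated into hepatocyte-like and biliary-like cells, and differentiated, cryopreserved cells were used throughout. Cells received a histone deacetylase (HDAC) inhibitor for 72 h, renewed daily, at one of 5 concentrations from C1 (lowest) to C5 (highest), and lysates were read with TempO-Seq, a probe-ligation assay in which each gene is counted through 1 or more short probes. Replicates 1, 2 and 3 of a group were 3 HepaRG batches. The labels put scriptaid, tacedinaline and vorinostat on plate E and the other 5 chemicals on plate H, so each chemical was compared with C1 of its own plate. There were 3 libraries in each of 38 groups and 2, with no batch 3, in panobinostat C3 and trichostatin A C4. Solvent controls were not used here, so C1 of each chemical served as its reference and any effect already present at C1 is not seen. C1 and C5 were 0.041722 and 0.86 µM for apicidin, 0.177222 and 3.9 µM for mocetinostat, 0.001468 and 0.084 µM for panobinostat, 4.94 and 94.5 µM for scriptaid, 1.14333 and 44 µM for tacedinaline, 0.018811 and 1.5237 µM for trichostatin A, and 0.404778 and 23.5 µM for vorinostat. For valproic acid the sample labels read 100.478 and 3038 µM, but the treatment description gives the same digits with the decimal point moved, so its unit is uncertain. Mocetinostat and tacedinaline are benzamides, panobinostat, scriptaid, trichostatin A and vorinostat are hydroxamic acids, apicidin is a cyclic peptide and valproic acid is a branched short-chain fatty acid. Concentrations differed between the chemicals at every level, so their values are set side by side and differences between chemicals were not tested.

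Heat shock proteins bind other proteins that are unfolded or not yet folded. HSP70 proteins do so in a cycle of ATP hydrolysis that is started by HSP40 partners and reset by nucleotide exchange factors, and HSP90 acts later on kinases and steroid receptors, while small heat shock proteins hold unfolded proteins without ATP. Many of these genes are switched on by heat shock factor 1 (HSF1), which binds as a trimer to inverted repeats of the letters GAA upstream of their starts. HDAC6, a cytoplasmic deacetylase, is known to deacetylate HSP90.

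The promoter letters below are shown because HSF1 acts on them and because the members that changed most in RNA differ in whether they hold the repeat. Each is 120 bases that end at the base before the annotated start, 5′ to 3′ on the gene's strand, from RefSeq on GRCh38.p14, with capitals marking GAANNTTC or TTCNNGAA. HSPA1A lies at chr6:31815423-31815542 and HSPA1B at chr6:31827618-31827737, both on the plus strand, HSPA2 at chr14:64540621-64540740 on the plus strand, HSPA8 at chr11:123062137-123062256 on the minus strand, DNAJB1 (the second of 3 annotated start windows) at chr19:14518398-14518517 on the minus strand, and HSP90AA1 (the second of 2) at chr14:102087045-102087164 on the minus strand.
HSPA1A: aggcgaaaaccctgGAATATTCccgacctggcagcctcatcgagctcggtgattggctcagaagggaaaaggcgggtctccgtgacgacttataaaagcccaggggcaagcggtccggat
HSPA1B: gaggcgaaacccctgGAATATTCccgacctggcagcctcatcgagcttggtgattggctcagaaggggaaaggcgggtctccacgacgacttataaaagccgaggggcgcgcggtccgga
HSPA2: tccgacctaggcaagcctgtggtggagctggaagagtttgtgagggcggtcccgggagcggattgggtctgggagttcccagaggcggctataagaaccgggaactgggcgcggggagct
HSPA8: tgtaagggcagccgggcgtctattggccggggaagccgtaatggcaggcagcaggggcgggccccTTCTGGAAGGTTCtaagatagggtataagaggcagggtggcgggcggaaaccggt
DNAJB1: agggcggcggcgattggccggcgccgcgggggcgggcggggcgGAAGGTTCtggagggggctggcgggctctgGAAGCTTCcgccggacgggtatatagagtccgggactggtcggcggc
HSP90AA1: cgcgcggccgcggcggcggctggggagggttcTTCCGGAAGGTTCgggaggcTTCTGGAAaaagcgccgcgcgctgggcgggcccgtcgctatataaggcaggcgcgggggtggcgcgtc

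The HSPA1A and HSPA1B stretches matched at 111 of 120 bases (92.5%) once HSPA1B was moved by 1 base, and their single match began 106 and 105 bases upstream of the start. In the 250 bases before each start that had a window, GAANNTTC or TTCNNGAA was found for 7 of the 10 members, in at least 1 of their 15 windows. It was found for 13.96% of all 27305 symbols with a window. The annotated genes HSPA2, HSPA8 and DNAJB1 reach further upstream than their windows, so their outermost starts were not searched. HSPA2, HSPH1 and BAG3 had no match, which says only that these letters are not in those windows. The longer run GAANNTTCNNGAA, searched on both strands and overlapping the shorter motif by construction, was found for HSPA8, HSP90AA1 and HSP90AB1. It was found for 0.5567% of all symbols (0.4414% of all windows). CCAAT was found for 6 members, against 37.0% of all symbols, and TATAAA for HSPA1A and HSPA1B, against 13.05%. A match describes the letters and was not tied to binding or to any change below.

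Depth ran from 1061359 to 5250260 counts per library (median 3702007). It was lowest at vorinostat C5, with 1061359 to 1879287 counts against 1785295 to 4134455 at vorinostat C1. Mean correlation with the other libraries of the same group was lowest for scriptaid C4 batch 3 (r = 0.803), followed by mocetinostat C2 batch 3 (0.829), scriptaid C4 batch 1 (0.863), mocetinostat C2 batch 1 (0.872) and trichostatin A C1 batch 3 (0.872). Chaperone calls at C5 or by trend that changed when scriptaid C4 batch 3, the mocetinostat C2 libraries or trichostatin A C1 batch 3 were left out are given beside the gene. The summed level of the hepatocyte marker list ran from 11861 to 55975 CPM (the counts of a probe scaled to its library's size by trimmed mean of M values) at C1 and from 2736 to 41218 at C5. At C5, 52 of 64 tests of this list fell, against 13.4% of tests over all probes and chemicals. The biliary list had a median sum of 81.4 CPM at C1 and 131.5 at C5. Of that list KRT19, SOX9 and SPP1 were counted in nearly every library, KRT7 was low and EPCAM never passed 2 counts. In the blood and endothelial list, whose median sum was 46.3 CPM at C1 and 28.4 at C5, PTPRC was at 0 in every library while CD68 had a median of 113.5 counts. The mesenchymal list had median sums of 44.2 and 37.3 CPM, but its markers moved in both directions. The median of COL1A1 went from 6.68 CPM at C1 to 20.2 at C5 and that of ACTA2 from 33.1 to 12.3. Of the 24 tests of this list at C5, 6 rose and 7 fell, where 11.6% of all tests rose and 13.4% fell. By mean, the hepatocyte sum went from C1 to C5 from 40114 to 3532 CPM with tacedinaline, 35791 to 5164 with vorinostat, 37592 to 6786 with scriptaid, 49539 to 7556 with mocetinostat, 43097 to 16918 with valproic acid, 48180 to 17060 with apicidin and 40572 to 22758 with panobinostat. With trichostatin A it went from 35323 to 37479, but its C1 batch 3 library stood at 11861, and without it the C1 mean was 47054, above C5. The part that this shift in hepatocyte RNA plays in the chaperone values was not tested, and fewer cells of a type and less RNA per cell cannot be told apart in lysates.

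Of the 96 tests of a member probe against C1 at each level, none passed at C2, 4 rose at C3, 15 rose and 2 fell at C4, and 19 rose and 3 fell at C5 (edgeR's quasi-likelihood test, Benjamini-Hochberg adjusted p under 0.05 over all probes of a chemical and a fold change of at least 1.5). Over all probes and chemicals, 0.0865% of tests passed at C2, 2.82% rose at C3, 7.85% rose and 8.14% fell at C4, and 11.6% rose and 13.4% fell at C5. The members' shares at C5 were 19.8% rising and 3.13% falling. At C2, 6 of the 96 had an unadjusted p under 0.05, and the lowest adjusted p was 0.0757. A straight line on log2 concentration, given below as the fitted change from C1 to C5, called 21 rising and 2 falling, where all probes gave 12.7% in each direction. The first level at which a probe was called in a chemical was C3 for 4 pairs of probe and chemical, C4 for 13 and C5 for 10. All comparisons of a chemical share its 3 C1 libraries and are not independent of one another.

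The chemicals differed in how many members passed. At C5 mocetinostat had 6 of 12 rising and 1 falling, where 14.8% of all probes rose and 15.7% fell. Tacedinaline had 4 rising and 1 falling (18.7% and 20.1% of all probes), and vorinostat 4 and 0 (22.7% and 24.9%). Apicidin had 2 and 0 (13.8% and 15.0%), scriptaid 2 and 1 (12.8% and 17.0%), and panobinostat 1 and 0 (6.77% and 9.46%), so that the rising shares of these 3 lay near the background. No member was called with valproic acid (4.84% and 6.22%), although 3 had an unadjusted p under 0.05, or with trichostatin A (0% and 0.0154%), where 0 had. Trichostatin A had only 2 called probes at C5 among 12993, with 1255 at an unadjusted p under 0.05. The median log2 change of the 12 member probes at C5 was 0.79 with mocetinostat, 0.39 with tacedinaline, 0.35 with apicidin, 0.31 with panobinostat, 0.25 with scriptaid, 0.21 with vorinostat, 0.10 with valproic acid and -0.07 with trichostatin A, while the median over all probes lay between -0.00 and 0.08.

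**Figure D1:**
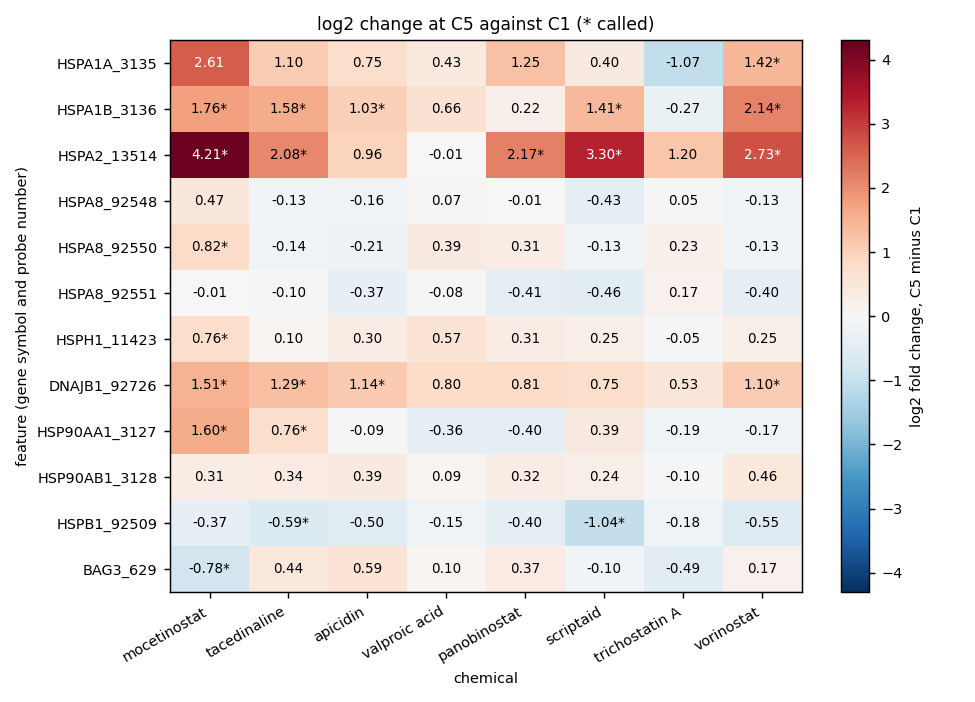
Log2 fold change at C5 against C1 of each tested member probe (rows, gene symbol and probe number) with each of the 8 chemicals (columns), printed in the cell and coloured from blue (lower at C5) to red (higher), with a star where the test passed. HSPA2 and HSPA1B have 5 stars each and DNAJB1 has 4, HSPB1 is below 0 in all 8 columns, and trichostatin A and valproic acid have no star.

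HSPA2, a testis-rich member of the HSP70 family that is also made in other tissues at lower levels, had the largest rise among the members. It passed at C5 in 5 chemicals, both benzamides and 3 of the 4 hydroxamic acids. With mocetinostat, it was at 2.64, 2.72 and 4.85 CPM at C1, 19.3, 18.1 and 20.1 at C3, 35.1, 27.4 and 46.3 at C4, and 47.9, 69.0 and 61.5 at C5 (values in the order of HepaRG batches 1, 2 and 3, as throughout). Each batch was higher at every step from C1 to C5, and no C3, C4 or C5 library overlapped C1. The mean went from 3.40 ± 1.25 to 59.5 ± 10.7 CPM (SD, n = 3), a log2 change of 2.51 at C3, 3.47 at C4 and 4.21 ± 0.353 (SE) at C5, or 18.5-fold (edgeR adjusted p = 2.33e-07).

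The other benzamide started higher. HSPA2 with tacedinaline was at 8.42, 10.1 and 7.08 CPM at C1, 26.8, 42.9 and 21.0 at C4 and 34.6, 32.9 and 35.0 at C5, and the C5 libraries were close to one another and all above C1. This was a log2 change of 2.08 ± 0.349, or 4.22-fold (adjusted p = 4.38e-06). Vorinostat took HSPA2 from 2.23, 3.52 and 2.80 CPM at C1 to 8.98, 22.6 and 22.4 at C5 (log2 change 2.73 ± 0.578, adjusted p = 0.000184), again with no overlap although batch 1 stayed lowest.

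With scriptaid, HSPA2 went from 2.79, 0.960 and 4.65 CPM to 18.1, 25.0 and 35.8 (log2 change 3.30 ± 0.758, adjusted p = 0.00282). At C4 its libraries were at 3.46, 4.50 and 29.2 CPM, and the high one is the library that stood apart from its group. Without batch 2 the scriptaid change at C5 was 2.91 with an adjusted p of 0.0703. Panobinostat moved HSPA2 from 1.52, 0.641 and 3.15 CPM to 5.60, 6.55 and 11.5 (log2 change 2.17 ± 0.671, adjusted p = 0.0282), a call lost whichever batch was left out (log2 1.90 to 2.45, adjusted p 0.114 to 0.147). These levels rest on few reads: the median count of HSPA2 over all libraries was 15, and 4 libraries had 3 counts or fewer.

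HSPA2 did not pass with the other 3 chemicals. Apicidin gave 2.51, 2.37 and 1.36 CPM at C1 and 2.35, 7.09 and 2.74 at C5 (adjusted p = 0.338), and valproic acid 3.20, 4.58 and 6.56 against 4.85, 3.32 and 5.92 (log2 change -0.01, adjusted p = 0.991). Trichostatin A gave 3.56, 2.77 and 0 CPM at C1 and 5.07, 4.99 and 4.72 at C5, where the groups did not overlap but the difference did not pass (log2 1.20, adjusted p = 0.691, and 0.63 without the C1 library of batch 3, which had no HSPA2 counts).

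HSPA1B, a stress-inducible cytosolic HSP70, passed at C5 in 5 chemicals as well: mocetinostat, tacedinaline, vorinostat, scriptaid and apicidin. With vorinostat, it was at 32.4, 15.6 and 33.2 CPM at C1, 54.2, 59.8 and 30.5 at C4 and 75.9, 137 and 111 at C5, where every library lay above every C1 library. The mean went from 27.1 ± 9.94 to 108 ± 30.6 CPM, a log2 change of 2.14 ± 0.299 or 4.39-fold (edgeR adjusted p = 3.46e-07). Tacedinaline raised it step by step, from 25.3, 32.9 and 36.1 CPM at C1 to 59.3, 46.8 and 50.3 at C3, 82.3, 50.1 and 74.9 at C4, and 98.4, 93.8 and 81.8 at C5. Its log2 changes were 0.72 (adjusted p = 0.0274), 1.16 (5.77e-05) and 1.58 ± 0.225 (1.94e-07).

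Mocetinostat did not move HSPA1B in one direction over its levels. The C1 libraries were at 31.1, 42.1 and 37.2 CPM, the C2 libraries at 7.52, 11.5 and 46.3, the C3 libraries at 14.9, 89.7 and 72.2, the C4 libraries at 85.4, 84.8 and 97.1 and the C5 libraries at 115, 108 and 130. Thus 2 C2 libraries and 1 C3 library lay below all C1 libraries before all C4 and C5 libraries lay above them. The change at C5 was 1.76 ± 0.563 on the log2 scale (3.38-fold, adjusted p = 0.0257), with a large standard error for groups this far apart, and without batch 2 it was 1.92 with an adjusted p of 0.139.

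Scriptaid raised HSPA1B from 33.1, 27.1 and 17.7 CPM to 71.4, 70.1 and 55.8 at C5 (log2 change 1.41 ± 0.424, adjusted p = 0.0171), after 29.8, 18.3 and 4.37 at C4. Apicidin raised it from 31.0, 41.2 and 31.3 CPM to 80.0, 58.4 and 71.6 (log2 change 1.03 ± 0.361, adjusted p = 0.0345). Neither overlapped C1 at C5. At apicidin C4 the libraries were at 20.0, 106 and 83.4 CPM, with batch 1 below C1 and the others above it (1.02, adjusted p = 0.0438). The scriptaid call was lost without batch 1 (1.53, adjusted p = 0.0745) or batch 2 (1.39, 0.188), and the apicidin call without batch 2 (1.29, 0.0635) or batch 3 (0.94, 0.261).

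In the remaining 3 chemicals HSPA1B at C5 was at 40.5, 44.6 and 45.7 CPM with valproic acid (C1 25.6, 32.1 and 25.7, adjusted p = 0.227), 40.9, 40.7 and 40.3 with panobinostat (C1 40.1, 34.2 and 29.3, adjusted p = 0.733), and 19.2, 36.3 and 34.0 with trichostatin A (C1 23.8, 30.8 and 54.6, adjusted p = 0.836). The valproic acid libraries lay above their C1 libraries without passing, and panobinostat, under which HSPA2 passed, left HSPA1B within a log2 change of 0.22. Ordered by mean level at C5, HSPA1B ran from mocetinostat (117 CPM) through vorinostat (108), tacedinaline (91.3), apicidin (70.0), scriptaid (65.8), valproic acid (43.6) and panobinostat (40.6) to trichostatin A (29.8). The libraries of neighbours in this order overlapped except between tacedinaline and apicidin, scriptaid and valproic acid, and panobinostat and trichostatin A. The first and second of these gaps lie between chemicals of different plates, so plate and chemical cannot be told apart there.

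**Figure D2:**
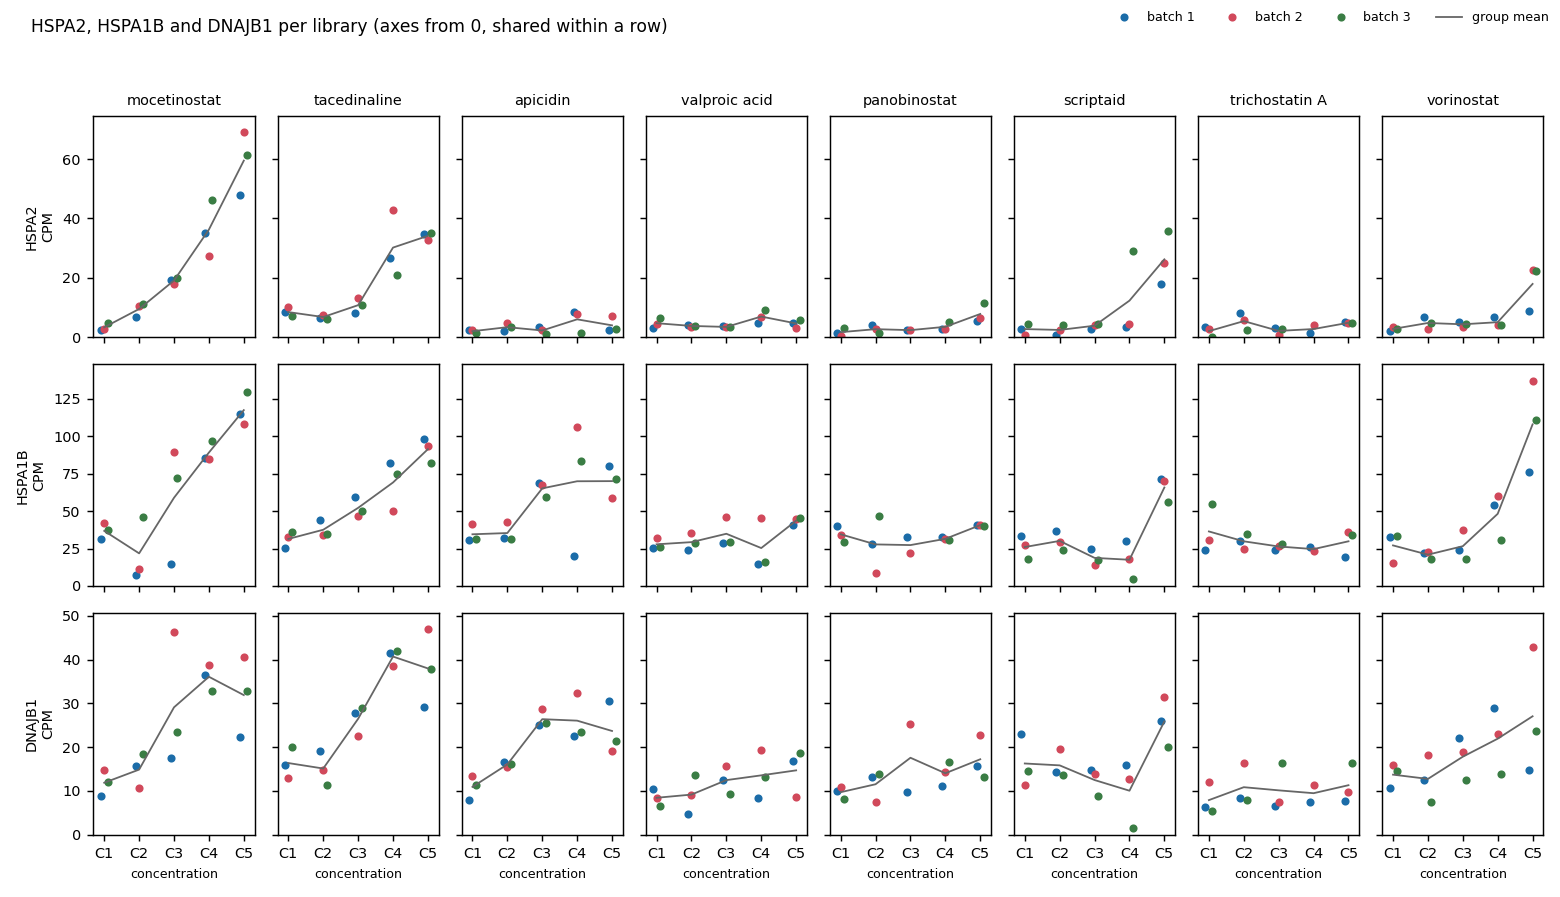
CPM (y axis, from 0, shared within a row) of HSPA2, HSPA1B and DNAJB1 in each library at C1 to C5 (x axis) for the 8 chemicals, coloured by HepaRG batch, with the group mean as a line. HSPA2 climbs to 47.9 to 69.0 CPM with mocetinostat and is at most 7.09 with apicidin at C5, while the HSPA1B mean with mocetinostat is lowest at C2.

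HSPA1A encodes a protein nearly the same as that of HSPA1B, and reads of such near-identical copies may be split between their probes, so each probe's level is uncertain as a measure of its gene. Its counts were low, with 3 or fewer in 14 libraries. With vorinostat it was at 4.47, 10.6 and 12.1 CPM at C1 and 12.2, 11.3 and 46.0 at C5. The groups overlapped and 1 library carried the high mean, yet the test passed (log2 change 1.42 ± 0.526, edgeR adjusted p = 0.0240). Without batch 1 the change was 1.39 with an adjusted p of 0.0522, and without batch 3 it was 0.68 with 0.417. Mocetinostat gave 3.16, 4.08 and 0.269 CPM at C1 and 14.2, 24.6 and 5.15 at C5, with no overlap, which missed the threshold at C5 (2.61 ± 0.970, adjusted p = 0.0517) and passed by trend (2.79, adjusted p = 0.0293), a call lost without batch 2 (adjusted p = 0.0788) or batch 3 (0.185). With the C2 libraries left out the mocetinostat change at C5 passed (2.55, adjusted p = 0.0190). The same change passed with DESeq2 (2.57, adjusted p = 0.0216), with no filter on low counts (2.53, 0.0253) and without the C3 library of batch 1 (2.55, 0.0367). It was not called with any whole batch left out. For tacedinaline (1.68, 18.1 and 7.56 CPM at C1, and 26.2, 18.5 and 15.9 at C5) the change of 1.10 had an adjusted p of 0.0564, and 1.25 with 0.0225 when the batch was a block. It passed without batch 2 for tacedinaline (2.03, adjusted p = 0.0104) and without batch 3 for scriptaid (2.00, 0.0231), where the full data gave 0.40.

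HSPA8 encodes the constitutive cytosolic HSP70, and its 3 tested probes did not behave alike. HSPA8_92550 was at 388, 484 and 338 CPM at mocetinostat C1 and 652, 775 and 589 at C5, a rise with no overlap (log2 change 0.82 ± 0.23, edgeR adjusted p = 0.0124) that was lost without batch 1 (0.76, adjusted p = 0.0687) or batch 2 (0.86, 0.0923). HSPA8_92548 passed with mocetinostat at C4 (0.70, adjusted p = 0.0438) and by trend (0.69, 0.0326) but not at C5 (0.47, 0.151). Its trend call was lost without the C2 libraries (0.51, adjusted p = 0.0632), without batch 2 (0.65, 0.167) or batch 3 (0.69, 0.188), with relative log expression size factors (0.62, 0.0514) and with no filter on low counts (0.63, 0.0716). HSPA8_92551 was called in none of the chemicals, and its change with mocetinostat was -0.01, though with vorinostat and without batch 2 it passed as lower (-0.62, adjusted p = 0.0109). No HSPA8 probe was called at C5 in another chemical.

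DNAJB1, an HSP40 that delivers clients to HSP70 and starts its ATP hydrolysis, rose in 4 chemicals and had a positive change at C5 in all 8. With apicidin it was at 7.96, 13.3 and 11.4 CPM at C1, 25.1, 28.6 and 25.4 at C3, 22.4, 32.3 and 23.4 at C4 and 30.6, 19.1 and 21.4 at C5. It reached its level by C3, the only apicidin call of a member at that level, with log2 changes of 1.28 (edgeR adjusted p = 0.00262), 1.27 (0.00192) and 1.14 ± 0.276 (0.00351). Mocetinostat gave 8.70, 14.7 and 12.1 CPM at C1, 17.5, 46.4 and 23.3 at C3, 36.4, 38.9 and 32.9 at C4 and 22.4, 40.5 and 32.7 at C5, all above C1 from C3 on, with log2 changes of 1.33 (0.0298), 1.66 (0.00417) and 1.51 ± 0.377 (0.00609).

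Tacedinaline took DNAJB1 from 16.0, 13.0 and 20.0 CPM at C1 to 41.5, 38.6 and 42.0 at C4 and 29.2, 46.9 and 37.8 at C5 (log2 change at C5 1.29 ± 0.291, adjusted p = 0.000349). Vorinostat took it from 10.6, 15.9 and 14.6 CPM to 14.7, 42.8 and 23.6, where batch 1 overlapped C1 (1.10 ± 0.386, adjusted p = 0.0175). Calls were lost for apicidin without batch 1 (0.72, adjusted p = 0.120), for tacedinaline without batch 2 (0.94, 0.0502) and for vorinostat without batch 2 (0.70, 0.272). The changes that did not pass were 0.81 with panobinostat, 0.80 with valproic acid, 0.75 with scriptaid and 0.53 with trichostatin A (adjusted p 0.149 to 0.777).

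HSPH1 is an HSP110, a nucleotide exchange factor that resets HSP70 and helps it to pull apart aggregates. Its 1 call at C5 was with mocetinostat: 150, 178 and 101 CPM at C1, 252, 223 and 259 at C4 and 242, 200 and 242 at C5, with no overlap (log2 change 0.76 ± 0.261, edgeR adjusted p = 0.0360). The call was lost with each batch left out, with size factors from the relative log expression method (0.70, adjusted p = 0.0531), with no filter on low counts (0.68, 0.0735) and without the C3 library of batch 1 (0.70, 0.0555). Valproic acid gave 207, 204 and 132 CPM at C1 and 272, 270 and 258 at C5, where the change of 0.57 had an adjusted p of 0.0521. It passed with the batch as a block (0.60, adjusted p = 0.0156), and was then the only member called with valproic acid at C5.

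The HSP90 genes parted. HSP90AA1, the inducible cytosolic HSP90, was called with both benzamides and no other chemical. With mocetinostat it was at 186, 274 and 279 CPM at C1, 504, 494 and 508 at C4 and 585, 731 and 806 at C5, with every C4 and C5 library above C1. The mean went from 246 ± 52.1 to 707 ± 112 CPM, a log2 change of 1.60 ± 0.221 or 3.04-fold (edgeR adjusted p = 4.42e-05). With tacedinaline it was at 278, 366 and 289 CPM at C1, 392, 515 and 487 at C4 and 473, 520 and 515 at C5, also with no overlap (0.76 ± 0.139, adjusted p = 1.63e-05). In the other 6 chemicals the change at C5 lay between -0.40 and 0.39 and did not pass. Scriptaid was the highest of these at 0.39, and without batch 3 it was 0.78 with an adjusted p of 0.00109. Whether the benzamides differ from the other chemicals was not tested, since concentrations were not matched.

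HSP90AB1, the constitutive cytosolic HSP90, was not called at C5 or by trend in any of the chemicals, with a positive change at C5 in 7 of 8. Its 1 call was with vorinostat at C4, from 247, 241 and 264 CPM at C1 to 341, 344 and 413 at C4, which did not overlap (0.59, edgeR adjusted p = 0.000995). At vorinostat C5 (0.46, adjusted p = 0.00694), apicidin C5 (0.39, 0.0443) and tacedinaline C5 (0.34, 0.0338) the p-value passed and the fold change did not reach the minimum.

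HSPB1, the small heat shock protein HSP27, had a negative change at C5 in all 8 chemicals. With scriptaid it was at 610, 667 and 634 CPM at C1 and 269, 322 and 295 at C5, with every C5 library far below C1, from a mean of 637 ± 28.8 to 295 ± 26.4 CPM (log2 change -1.04 ± 0.223, edgeR adjusted p = 0.00175). With tacedinaline it was at 914, 847 and 910 CPM and then 583, 566 and 533, from 890 ± 37.1 to 561 ± 25.7 CPM, again with no overlap (-0.59 ± 0.113, adjusted p = 3.78e-05). The scriptaid call was lost without batch 1 (-1.03, adjusted p = 0.0650) or batch 2 (-1.07, 0.0673), and without batch 3 the tacedinaline change of -0.56 fell short of the minimum fold. HSPB1 fell at C4 with vorinostat (678, 654 and 769 CPM at C1 and 407, 363 and 405 at C4, log2 change -0.79, adjusted p = 1.2e-05) and apicidin (895, 989 and 951 CPM, then 648, 689 and 531, -0.59, 0.00458), and both fell by trend (-0.81 and -0.68). At C5 their changes of -0.55 and -0.50 passed on p but not on fold, and passed on both for vorinostat with no filter on low counts (-0.64) and for apicidin without batch 2 (-0.59, adjusted p = 0.0369). The scriptaid trend did not pass (-0.68, adjusted p = 0.0856) and passed without the C4 library of batch 3 (-0.81, 0.00708). Mocetinostat had its highest HSPB1 at C2, at 2283, 1911 and 1043 CPM, with batches 1 and 2 above every C1 library and batch 3 among them, and did not pass at C5 (-0.37, adjusted p = 0.273).

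BAG3, a nucleotide exchange factor that links HSP70 to selective autophagy and binds small heat shock proteins, went different ways. With mocetinostat it was at 58.8, 34.7 and 46.6 CPM at C1 and 20.6, 28.2 and 28.2 at C5, lower with no overlap (log2 change -0.78 ± 0.260, edgeR adjusted p = 0.0319), and the call was lost with no filter on low counts (-0.85, adjusted p = 0.0581) and with batch 1 (-0.50, 0.275), 2 (-1.03, 0.102) or 3 (-0.85, 0.103) left out. With vorinostat it was at 34.1, 41.5 and 46.9 CPM at C1, 84.5, 79.9 and 63.1 at C4 and 41.6, 51.8 and 34.8 at C5. It rose at C4 with no overlap (0.92 ± 0.218, adjusted p = 0.00109) and did not pass at C5, where the libraries overlapped C1 (0.17, 0.554). Its vorinostat trend (0.70, adjusted p = 0.0396) did not pass with the batch as a block (0.70, 0.0532). That call was also lost with relative log expression size factors (0.65, adjusted p = 0.0501) and with no filter on low counts (0.63, 0.0760). Leaving out batch 1 (0.49, adjusted p = 0.248) or batch 2 (0.61, 0.201) ended it as well. The apicidin trend passed (0.67, adjusted p = 0.00974) and was lost without batch 1 (0.58, 0.0641). With tacedinaline BAG3 did not pass, and did at C5 (0.73, adjusted p = 0.0363) and by trend (0.71, 0.0341) without batch 3. DESeq2 called it with apicidin at C5 (0.59, adjusted p = 0.0412), where edgeR did not.

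**Figure D3:**
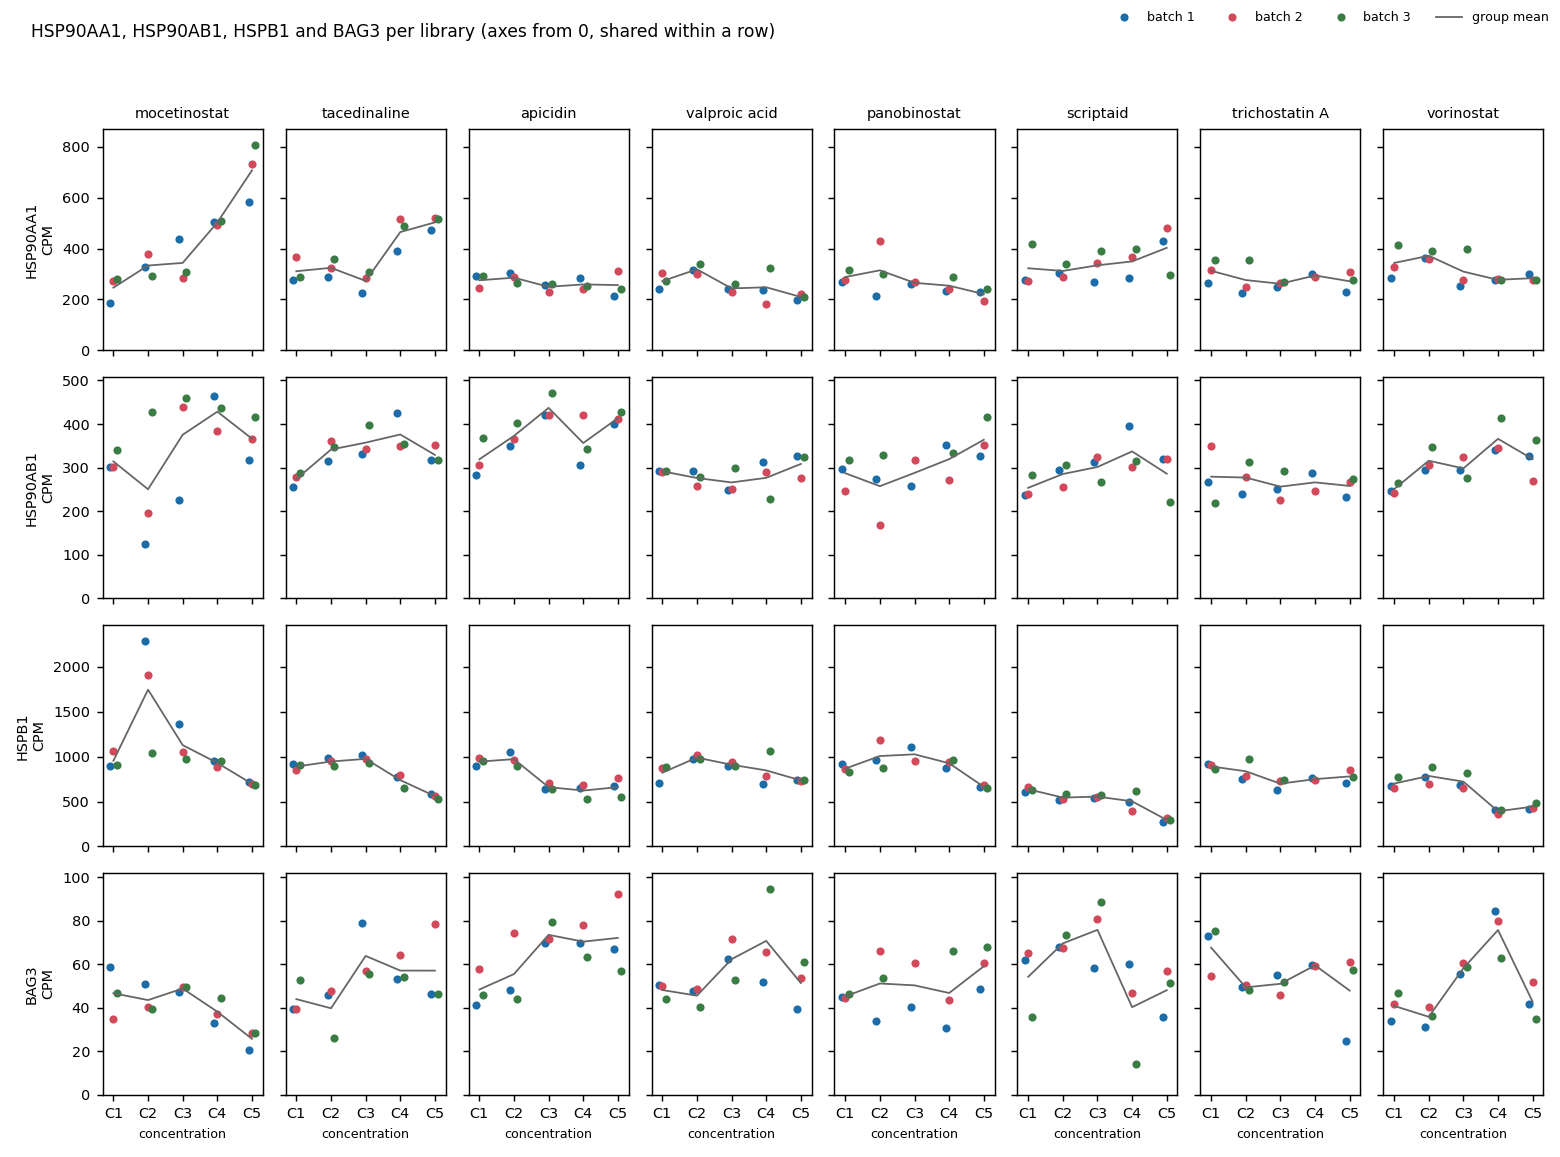
CPM (y axis, from 0, shared within a row) of HSP90AA1, HSP90AB1, HSPB1 and BAG3 in each library at C1 to C5 (x axis) for the 8 chemicals, coloured by HepaRG batch, with the group mean as a line. HSP90AA1 rises to 707 CPM on average with mocetinostat and to 503 with tacedinaline and is called in no other chemical. HSPB1 ends below C1 in every panel, and BAG3 peaks at C4 with vorinostat.

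Counted by role over all chemicals at C5, where 11.6% of all tests rose and 13.4% fell, HSP70 probes rose in 12 of 48 tests and DNAJB1 in 4 of 8. HSP90 probes rose in 2 of 16 and HSPH1 in 1 of 8, which is near the share over all probes. None of these fell. HSPB1 and BAG3 together rose in 0 of 16 and fell in 3, with HSPB1 falling in 2 chemicals and BAG3 in 1. By trend, where 12.7% of all tests passed in each direction, HSPA2 rose in 5 chemicals, HSPA1B and DNAJB1 in 4 each, and HSPB1 fell in 2. Of these trend calls, leaving out a batch ended HSPA2 with panobinostat (any batch) and scriptaid (batch 2), HSPA1B with apicidin and mocetinostat (batch 3) and DNAJB1 with vorinostat (batch 1 or 2), with adjusted p from 0.0502 to 0.162.

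Other chaperones, taken from lists of gene names by compartment and complex, moved in both directions, and their counts at C5 stand against 11.6% rising and 13.4% falling over all probes. Co-chaperones of HSP90 and HSP70 rose in 19 of 119 tests and fell in 12, and lie near those shares. STIP1, the adaptor that hands clients from HSP70 to HSP90, rose in 5 chemicals (log2 change -0.19 to 1.84 over the 8), and BAG4, another exchange factor, rose in 5 (0.15 to 2.52). The falls of this list were those of BAG1, BAG2 and FKBP5, in 4 chemicals each (median log2 change -0.73, -0.79 and -0.52). Subunits of TRiC, the ring-shaped chaperonin that folds actin and tubulin, rose in 12 of 80 and fell in 0. TCP1 gave most of those, with 4 chemicals for the probe TCP1_92625 and 5 for TCP1_92626. Chaperones of the endoplasmic reticulum rose in 5 of 54 and fell in 15. HSPA5, the HSP70 of that compartment, fell in 6 chemicals (-1.45 to -0.44). SERPINH1, the collagen chaperone HSP47, fell in 4 through the probe SERPINH1_92868 (-3.78 to -0.86). Its probe SERPINH1_92870 fell in 2 of the 6 chemicals where it was tested (-6.84 to 1.20), and SERPINH1_92869 was called in 0 of 8 (-2.43 to 0.09). The 5 rises of this list were all those of DNAJB11 (median log2 change 0.65).

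Of the remaining groups, other HSP70 and HSP110 genes rose in 8 of 33 tests and fell in 0, and other HSP40 genes rose in 3 of 48 and fell in 1. Among those 8 rises, 1 was HSPA1L (log2 change 6.90). It passed the filter on low counts in that 1 chemical only, so its call adds no support to the share of this list. Mitochondrial chaperones rose in 1 of 40 and fell in 2, and heat shock transcription factors with their binding protein rose in 1 of 32 and fell in 2. Among other small heat shock proteins (3 rising and 4 falling of 16), HSPB8, which forms a complex with BAG3, fell with mocetinostat (-1.78), tacedinaline (-1.47), scriptaid (-0.97) and vorinostat (-0.91) and rose with panobinostat (0.60).

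**Figure D4:**
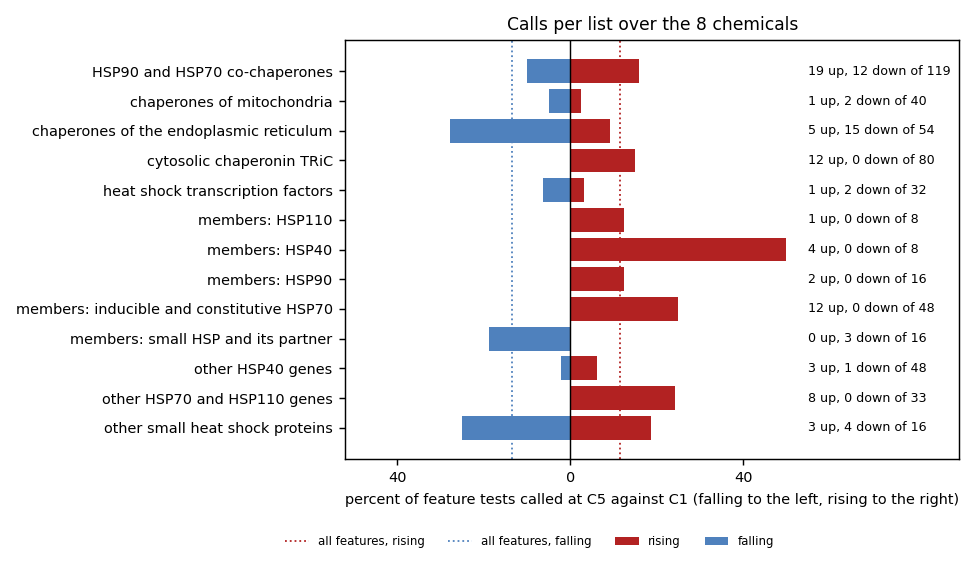
Share of tests (x axis, percent, falling to the left and rising to the right of 0) called at C5 against C1 over the 8 chemicals for each group of chaperones (rows, members by role and other genes), with counts at the right and dotted lines at the shares over all probes. DNAJB1 (members: HSP40), with 4 of 8, reaches farthest right and the chaperones of the endoplasmic reticulum, with 15 of 54, farthest left, while HSPB1 with BAG3 and other small heat shock proteins also pass the line at 13.4% falling. Past the line at 11.6% rising are also the HSP70, HSP90 and HSP110 members (the last pair only just), other HSP70 and HSP110 genes, TRiC, co-chaperones and other small heat shock proteins.

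Over the 40 group means of log2 CPM, which share chemicals, plates and depth, the levels of DNAJB1 and HSPA1B went together (Pearson r = 0.798), and DNAJB1 with HSPA2 less closely (0.709). The probes of other genes most like DNAJB1 were USB1 (0.914), RFX2 (0.906) and LSM4 (0.903). Most like HSPA1B were SNRNP48 (0.939), DIXDC1 (0.925) and RUVBL1 (0.918), and most like HSPA2 were LAPTM4B (0.891), IFI30 (0.876) and TMEM25 (0.874). No other member was among these. These are descriptions over group means that many genes share a rise across, and no test was made.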

How the data were processed

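TempO-Seq probe counts of 118 HepaRG libraries were used. The deposited values were raw counts per probe made by the authors, and the submitters' processing notes name bcl2fastq 2.20.422, fastp 0.23.2, STAR 2.7.10b and DESeq2 1.38.0. The roles of these tools, the genome build and the probe annotation are not given in the sources used here. Of 22069 rows, 1 with missing values was left out.

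For each chemical, edgeR 4.0.16 (R 4.3.3) was fitted to its C1 to C5 libraries after filterByExpr and TMM scaling, with quasi-likelihood F tests of C2 to C5 against C1 and of a linear trend on log2 concentration. P-values were Benjamini-Hochberg adjusted over all probes of a chemical, and a call needed an adjusted p under 0.05 and a fold of at least 1.5. The p-values rest on the spread between the libraries of a group, each from another HepaRG batch, so batch and well cannot be told apart in them. CPM were set on TMM sizes over all libraries, and log2 CPM used a prior count of 2. The scripts were tested on simulated data. Counts limit precision, and HSPA1A, HSPA2 and DNAJB1 had 3 counts or fewer in some libraries.

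The replicate number marks the HepaRG batch per the labels. Deviations from group means correlated at a median of 0.0361 over 232 same-batch pairs of libraries and -0.0145 over 464 different-batch pairs. Alternatives were DESeq2 1.42.0, RLE size factors, no filter, the batch as a block, no minimum fold and each batch left out. All members and lists were chosen with earlier results of these data known. Every member probe is named. From each other list the 2 probes with the largest median change at C5 among those called in at least 4 chemicals are named, and HSPB8 was the only one of its list. The falling co-chaperones BAG1, BAG2 and FKBP5, the rising DNAJB11, HSPA1L and the other tested probes of SERPINH1 are named in addition. For likeness, the 3 nearest probes of other genes are named for members called by trend in at least 4 chemicals. Promoter windows are from RefSeq (GRCh38.p14), and symbols matched for 18807 of 19470.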

Additional observations from a re-analysis of the deposited data

How the results depend on the processing

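No direction of a member's change at C5 or by trend was turned by an alternative where it was called. Of the 22 calls at C5, 8 were kept in every alternative, and of the 23 by trend, 12 were. Leaving out each batch in turn gave, in place of the reported number of member probes called at C5, 1 to 2 with apicidin (2 reported), 3 to 5 with mocetinostat (7), 0 with panobinostat (1), 0 to 5 with scriptaid (3), 5 with tacedinaline (5) and 3 to 4 with vorinostat (4), and by trend 3 to 4 with apicidin (4), 3 to 8 with mocetinostat (8), 0 with panobinostat (1), 0 to 2 with scriptaid (1), 4 to 5 with tacedinaline (4) and 3 to 5 with vorinostat (5). Fewer libraries were fitted in each of these. The 5 with tacedinaline at C5 were not always the same probes. Without batch 2 DNAJB1 was lost and HSPA1A gained, and without batch 3 HSPB1 was lost and BAG3 gained. With no minimum fold, C5 gave 4 with apicidin and 7 with vorinostat, and the trend gave 2 with panobinostat, 7 with tacedinaline and 1 with valproic acid (0 reported). The same setting also brought in HSP90AB1 with tacedinaline at C5 and with apicidin and vorinostat by trend. It brought in HSPA8_92551 with vorinostat by trend as well. DESeq2 gave 2 by trend with scriptaid, as did leaving out scriptaid C4 batch 3, and the cause was not tested. With the HepaRG batch as a block, valproic acid had 1 call at C5 (0 reported). The block also brought in HSPA1A with tacedinaline at C5 and removed BAG3 with vorinostat by trend, and it changed no other call. DESeq2 changed 2 of the 96 results at C5 and RLE size factors 1. Leaving out scriptaid C4 batch 3, the mocetinostat C2 libraries or mocetinostat C3 batch 1 was chosen after the data were seen. Low counts limit HSPA1A and HSPA2, and vorinostat C5 had the shallowest libraries.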

Other observations

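Beside the changes with concentration, some of the chaperones varied together within groups, while others went apart or against them. Over the 118 libraries, each taken as its deviation from its own group mean of log2 CPM, HSPA1B went with HSPA8_92550 (Pearson r = 0.708), HSPH1 (0.604) and HSP90AB1 (0.519) and against HSPB1 (-0.459) and HSP90AA1 (-0.396), while the HSPA8 probes HSPA8_92550 and HSPA8_92551 did not go together (-0.137). HSP90AB1 and HSPB1 also went opposite ways (-0.480). Deviations of one group sum to 0 and libraries share plates and depth, so these are descriptions without a test.

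The libraries with the lowest HSPA1B for their group were mocetinostat C3 batch 1, scriptaid C4 batch 3, apicidin C4 batch 1, panobinostat C2 batch 2 and mocetinostat C2 batch 1. HSPA1B was 14.9, 4.37, 20.0, 8.86 and 7.52 CPM in these libraries, and HSPA1A was 0.292, 0, 0, 0.537 and 0 CPM. HSPB1 was 1361, 621, 648, 1184 and 2283 CPM, with log2 deviations from the group mean of 0.29, 0.33, 0.07, 0.25 and 0.46. Next in this order was vorinostat C1 batch 2, where HSPA1A was at 10.6 CPM and the deviation of HSPB1 was -0.09. No cause of these libraries was tested, and 2 of the 5 with the lowest HSPA1B are from mocetinostat.

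The slope of each member on log2 concentration was also compared between the batches within each chemical. Of 96 such comparisons, 1 had an unadjusted p under 0.05 and none passed after Benjamini-Hochberg adjustment (edgeR, lowest adjusted p = 0.448), which does not show that the batches responded alike.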
